A study of Mus musculus with 66 samples.

Results

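The genes described here encode the machinery of oxidative phosphorylation in the mouse: the subunits of complexes I to IV of the respiratory chain, the subunits of ATP synthase (complex V), and cytochrome c. They were chosen by name from the annotation of the arrays. A gene was taken when its symbol began with Nduf (complex I), Sdha, Sdhb, Sdhc or Sdhd (complex II), Uqcr (complex III), Cox followed by a digit from 4 to 8 (complex IV) or Atp5 (complex V), or when it was Cycs or Cyct. The annotation named 86 such genes, and 84 of them were measured, out of 13472 genes measured in all. The 84 were 32 complex I subunits, 7 complex I assembly factors (Ndufaf genes), 4 complex II subunits, 4 complex II assembly factors (Sdhaf genes, which met the rule by their letters and encode no subunit), 7 complex III subunits, 2 cytochromes c, 14 complex IV genes and 14 complex V subunits. Cox7a2l, counted with complex IV by its letters, encodes a factor joining complexes III and IV. Cox6a2 and Cox8a did not pass the filter on low signal, with highest signals of 38.8 and 22.4, and have no value below.

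Whole testes of BL/6-129 mice were profiled at 11 ages, days 0, 3, 6, 8, 10, 14, 18, 20, 30, 35 and 56 of life. Each age has a sample 1 and a sample 2 on each of 3 array types, A, B and C. Total RNA was run on these, which makes 66 arrays. The labels do not say that equal numbers on different types are 1 RNA. The labels name no treatment or altered gene, and age is what separates the groups. Nothing in the labels tells if both samples of an age came from different animals, from pools or from 1 RNA, so that p-values measure the spread between these samples, which may be technical.

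In oxidative phosphorylation, complexes I and II pass electrons from NADH and succinate to ubiquinone. Complex III passes them on to cytochrome c, and complex IV from there to oxygen. Complexes I, III and IV pump protons across the inner mitochondrial membrane, and ATP synthase uses their return to make ATP. Most subunits are encoded in the nucleus, and several subunits of complex IV and cytochrome c have second genes with tissue-restricted forms. In the testis, Cyct (cytochrome c, testis form), Cox6b2, Cox7b2 and Cox8c are known as forms of male germ cells, next to the ubiquitous Cycs, Cox6b1, Cox7b and Cox8a. Cox7a1, Cox6a2 and Cox8b are known from heart and skeletal muscle.

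Values are array signals, scaled by the authors to a common mean on every array, and changes are on the scale log2(signal + 16), which understates the change of low signals. In RNA of the whole organ, fewer cells of a type and less RNA per cell cannot be told apart. Marker genes of testis cells moved strongly with age. All 8 elongating spermatid markers were higher at days 30 to 56 than at days 0 to 10, as were 7 of 8 round spermatid and 6 of 7 spermatocyte markers, and 8 of 10 Sertoli markers and 4 of 5 myoid and smooth muscle markers were lower. The summed signal of the spermatocyte markers went from 545 to 1125 at days 0 to 10 to 17615 to 23306 at days 30 to 56, and that of the Sertoli markers from 7424 to 8900 to 2975 to 3614. Their part in the changes below was not tested. Of the other marker lists, spermatogonia had 2 of 7 higher and 4 lower, Leydig cells 2 of 6 and 3, macrophages 1 of 5 and 2, endothelium 0 of 4 and 4, erythroid cells 0 of 3 and 2 and adipocytes 1 of 3 and 1, and no epididymis marker was measured. Over all genes measured, 24.8% were higher and 42.3% lower at days 30 to 56 than at days 0 to 10. Days 0 and 20 were the least even days: samples 1 and 2 differed by over 1 on the log2 scale in 31 of the 84 genes at day 0 and in 16 at day 20, against at most 6 at any other day. All signals named here come from the probe set with the highest mean signal of its gene.

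Days 30, 35 and 56, when spermatids fill the tubules, were compared with days 0 to 10, before pachytene spermatocytes are common, over 6 and 10 samples. The oxidative phosphorylation genes did not move as a block. With limma at an adjusted p under 0.05, 20 of 84 (23.8%) were higher at days 30 to 56, beside 24.8% of all genes tested, and 26 (31%) were lower, beside 42.3%. With a change of at least 2-fold added, 10 were higher, beside 14.9% of all genes, and 8 lower, beside 20.6%. In 15 members every sample of days 30 to 56 lay above every sample of days 0 to 10, beside 16.3% of all genes, and in 12 every sample lay below, beside 22.8%. The moderated F-test over the 11 days called 36 members (42.9%), beside 57.5% of all genes.

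The log2 changes of members ran from -2.08 to 5.63 with a median of -0.11, beside a median of -0.24 over all genes. That median depends on the scaling: with every array scaled to its median signal the members' median was 0.1 and 26 members were higher and 14 lower, while the median of all genes moved to 0 and their calls from 3343 higher and 5705 lower to 4342 and 4278. With quantile normalization the members' median was -0.15, with 18 higher and 29 lower, and the median of all genes was -0.13. Of the 84 members, 76 reached a signal of 50 on at least 2 arrays in each age group. Cyct and Ndufaf2 did so at days 30 to 56 but not at days 0 to 10, Atp5j2, Ndufaf4, Sdha and Sdhaf3 the reverse, and Cox7a1 and Ndufc2 in neither group.

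**Figure D1:**
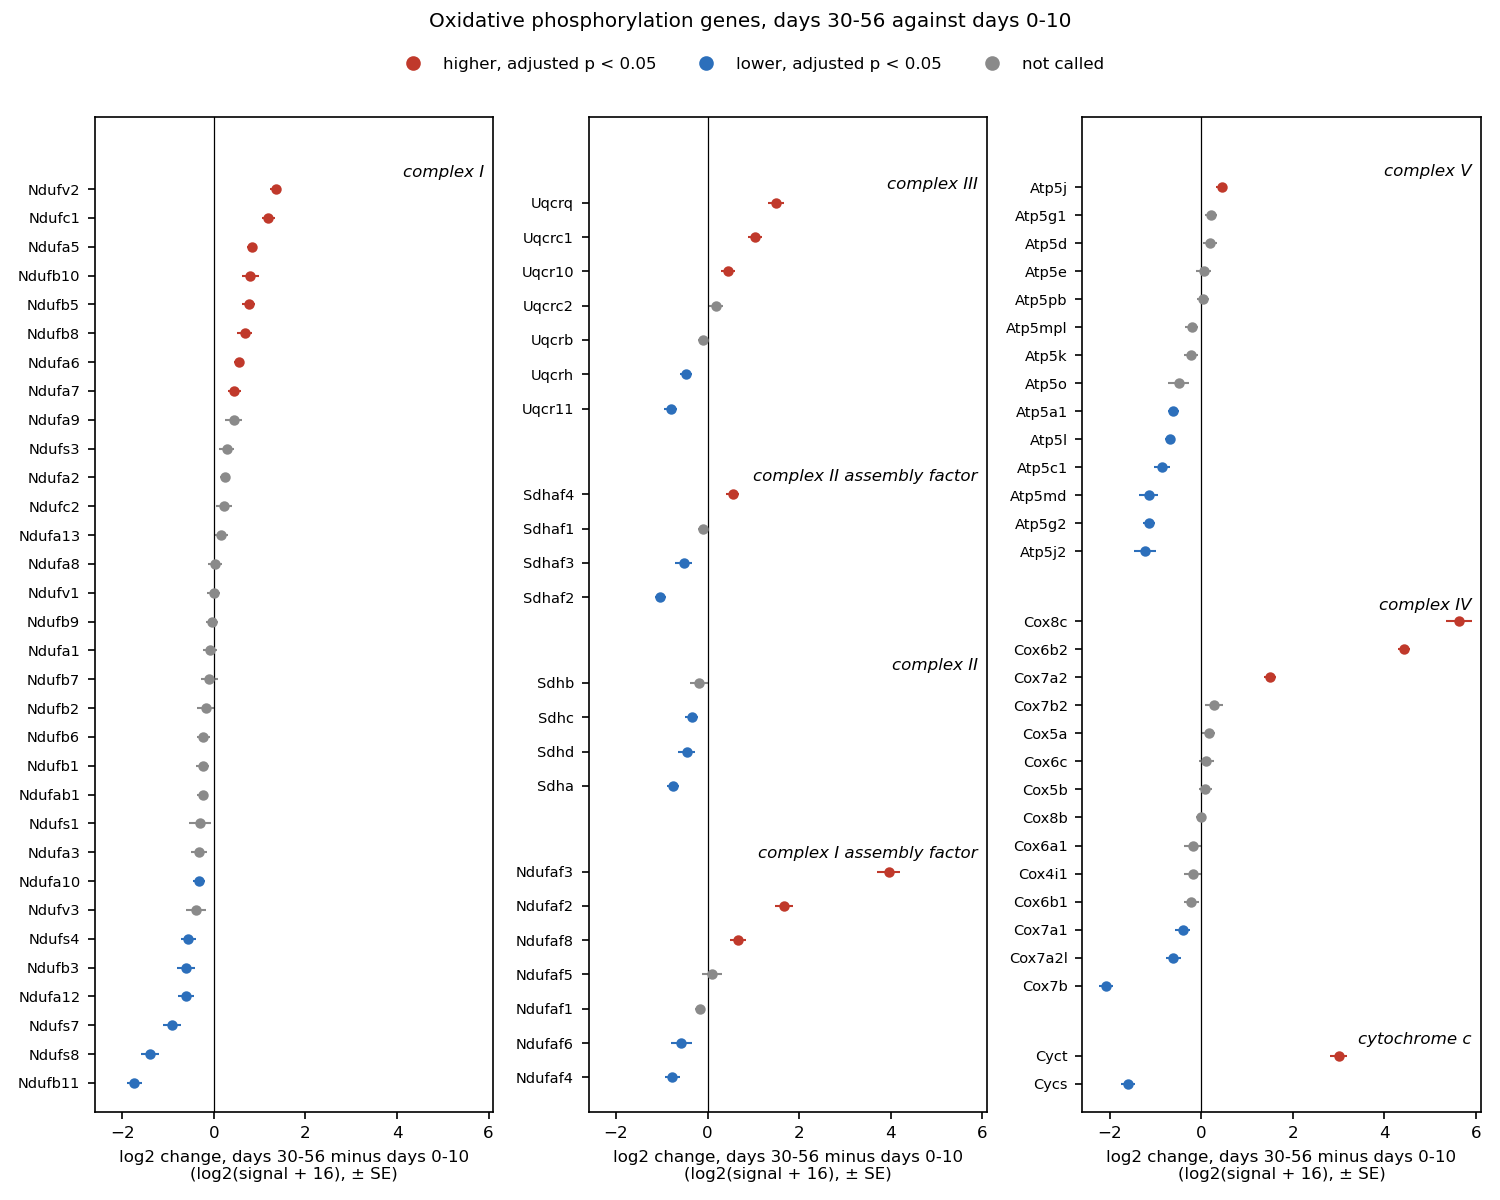
Log2 change from days 0-10 to days 30-56 on the log2(signal + 16) scale (horizontal axis, point and SE) for the 84 genes, by complex. Red and blue points are genes called higher (20) and lower (26) at an adjusted p under 0.05 in limma, and grey points are not called; Cox8c, Cox6b2, Ndufaf3 and Cyct lie at 3 or more, away from the other genes.

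The 4 largest rises of the whole group were in testis forms and 1 assembly factor. Cyct, the testis form of the electron carrier cytochrome c, had signals from 5.6 to 48.9 at days 0 to 10 (median 33.6), of 173 and 143 at day 14, and of 524 and 538 at day 18. At days 30 to 56 its lowest, median and highest signals were 300, 359 and 445. All 10 early samples therefore lay under the signal of 50 used as the filter, day 14 lay above all of them, and the late samples lay between those of days 14 and 18. The change was 3 ± 0.19 (SE, adjusted p = 1.9e-10 in limma), and since the early signals are low it ran from 2.15 to 3.57 with pseudocounts of 64 and 1. Because Cyct passed the filter only through later samples, that p-value is no independent support.

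Cycs, the form of somatic cells, took the opposite course. Its signals rose from 132 and 168 at day 0 to 453 and 398 at day 10. They were 354 and 311 at day 14, 321 and 128 at day 18, and 110 and 158 at day 20. At days 30 to 56 they lay between 55.8 and 98.3 (median 75.8), below every sample of days 0 to 10. The change was -1.6 ± 0.16 (adjusted p = 6.6e-08 in limma).

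Cox6b2, the testis form of a complex IV subunit on the face towards the intermembrane space, had signals of 116 to 217 (median 146) at days 0 to 10. They were 752 and 689 at day 14, 1907 and 2747 at day 18, and 3066 to 3970 (median 3544) at days 30 to 56. No sample from day 14 on overlapped with the early ones. The change was 4.42 ± 0.13 (adjusted p = 3.47e-15 in limma). All measured probe sets of Cox6b2 have names that mark shared or less specific probes. Its ubiquitous counterpart Cox6b1 had 63.8 to 110 (median 86) at days 0 to 10 and 46.1 to 117 (median 70.1) at days 30 to 56, groups that overlap, with a change of -0.22 ± 0.16 that was not called (adjusted p = 0.245).

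Cox8c, the testis form of the small subunit VIII, showed the largest change of all 84 genes. At days 0 to 10, 9 of 10 samples had signals between 100 and 329, and sample 2 of day 3 had 1054. The signals were 3055 and 4723 at day 14, 15710 and 12040 at day 18, and 11392 to 15281 (median 11997) at days 30 to 56. Every sample from day 14 on was above the highest early sample, and the change was 5.63 ± 0.29 (adjusted p = 2.48e-11 in limma). The size depends on the probe set: other probe sets of Cox8c gave 3.39 and 3.22 on type A and 0.31 on type C, and the mean of the 2 probe sets on type C gave 2.97. The name of the probe set used marks probes shared with other transcripts. The counterpart Cox8a was not measured, so that no pair could be formed.

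Cox7b2, the testis form of subunit VIIb, differed from these 3. Its signals were 62.7 to 166 (median 108) at days 0 to 10 and 100 to 174 (median 135) at days 30 to 56, and the groups overlap. The change of 0.28 ± 0.19 was not called (adjusted p = 0.206), but it was called at 0.57 with median scaling (adjusted p = 0.0181 in limma) and at 0.51 with quantile normalization (adjusted p = 0.0251 in limma). The counterpart Cox7b, on chromosome X, fell from 261 to 586 (median 356) at days 0 to 10 to 57.6 to 102 (median 73.3) at days 30 to 56, with no overlap and a change of -2.08 ± 0.15 (adjusted p = 1.06e-09 in limma), the largest fall of the 84 genes.

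**Figure D2:**
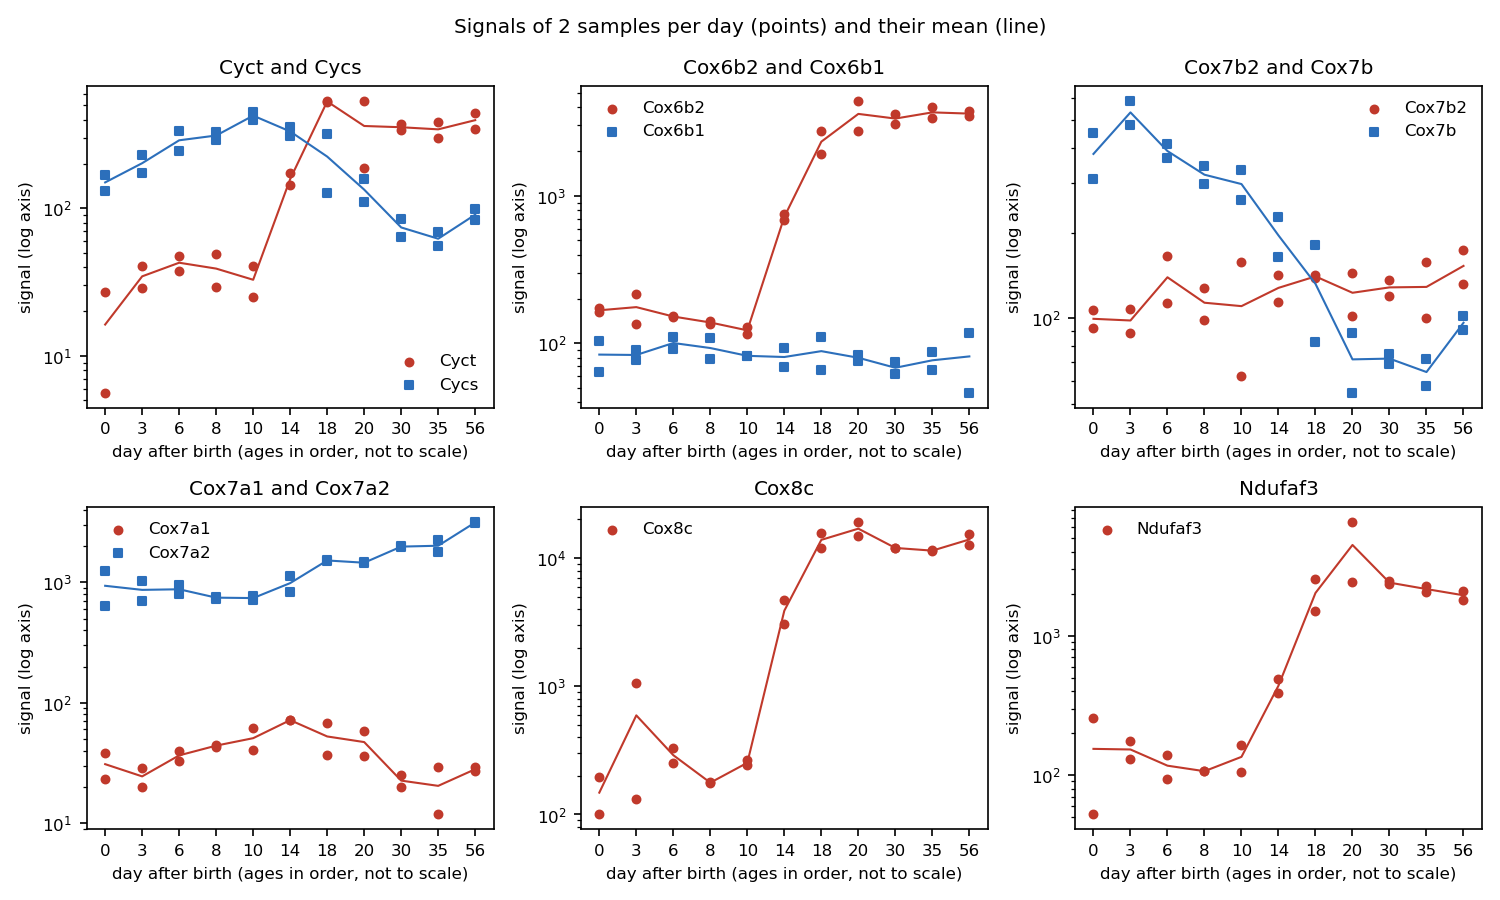
Signal (log axis) of each of the 2 samples per day (points) and their mean (line) against the day after birth, for testis or muscle forms (red circles) and ubiquitous forms (blue squares), with Cox8c and Ndufaf3 alone. Cyct, Cox6b2, Cox8c and Ndufaf3 stand above their early samples from day 14 on, while Cycs and Cox7b fall and Cox6b1 stays between 46.1 and 117.

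Each testis form was then set against its ubiquitous form within a sample, as the log2 difference between the probe sets, which largely cancels the scaling of an array. The difference has no meaning as a level, since the probe sets differ, but its change between ages does. For Cyct minus Cycs the difference went from -2.54 ± 0.43 (SD, n = 10) at days 0 to 10 to 2.06 ± 0.22 (SD, n = 6) at days 30 to 56, a change of 4.6. For Cox6b2 minus Cox6b1 it went from 0.67 ± 0.3 to 5.32 ± 0.42, a change of 4.64. For Cox7b2 minus Cox7b, which lie on types C and A so that the scaling does not cancel, it went from -1.64 ± 0.45 to 0.71 ± 0.29, a change of 2.35. Of that change, 0.28 came from Cox7b2 and the rest from Cox7b. The muscle form Cox7a1 minus the ubiquitous Cox7a2 moved the other way, from -4 ± 0.45 to -5.9 ± 0.25, a change of -1.9. Of that, -0.41 came from Cox7a1 and the rest from the rise of Cox7a2 (1.49), whose second probe set did not rise. Cox7a1 reached a signal of 50 on at least 2 arrays in neither age group, so that this difference is set against low signals and says little about Cox7a1 itself. In each of the 4 pairs all 6 late samples lay on 1 side of all 10 early samples, and the exact two-sided permutation test over samples gave p = 0.000125 (0.000125 after Benjamini-Hochberg adjustment over the 4 pairs), the smallest that its 8008 arrangements can give. The test counts samples of the same age as independent, and its p-value would be too small if they were repeats of 1 RNA. The pairs were chosen with the course of these genes known, so that the test is no independent support. At this smallest value it says only that late and early samples did not overlap, not how large the change was.

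The stretches before the start sites of the 3 pairs of testis and ubiquitous forms are shown because these are the genes whose courses part. Each line gives 120 bases up to the start site from RefSeq (GRCm38.p6), read 5′ to 3′ on the gene's own strand, with any motif named below in capitals.
Cyct, chr2:76360454-76360573 (minus strand): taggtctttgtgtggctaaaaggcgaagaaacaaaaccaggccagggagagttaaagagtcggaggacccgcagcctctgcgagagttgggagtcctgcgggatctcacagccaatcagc
Cycs, chr6:50566570-50566689 (minus strand): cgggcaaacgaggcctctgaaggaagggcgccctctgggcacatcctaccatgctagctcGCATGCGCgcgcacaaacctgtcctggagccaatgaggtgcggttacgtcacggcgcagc
Cox6b2, chr7:4753095-4753214 (minus strand): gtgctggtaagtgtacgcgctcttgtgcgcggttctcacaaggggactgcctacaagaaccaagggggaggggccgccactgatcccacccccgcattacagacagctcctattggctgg
Cox6b1, chr7:30626115-30626234 (minus strand): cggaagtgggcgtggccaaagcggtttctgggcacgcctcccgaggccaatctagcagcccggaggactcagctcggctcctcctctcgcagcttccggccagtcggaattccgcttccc
Cox7b2, chr5:71548206-71548325 (minus strand): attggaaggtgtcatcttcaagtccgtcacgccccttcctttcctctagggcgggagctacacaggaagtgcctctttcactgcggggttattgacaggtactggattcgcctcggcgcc
Cox7b, chrX:106015580-106015699 (plus strand): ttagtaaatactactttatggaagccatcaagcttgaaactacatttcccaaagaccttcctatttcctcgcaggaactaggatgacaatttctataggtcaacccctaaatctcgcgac

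The letters of 4 motifs known from promoters of respiratory genes were searched on both strands, in the 250 bases before and 50 after the start site of the 71 members that the RefSeq table holds. The core of nuclear respiratory factor 1, GCGCATGC or GCATGCGC (which overlap where the sequence reads on), was found in 12 of 71 members (16.9%), beside 3.94% of 17492 protein-coding genes. The core of YY1, AAGATGGC or GCCATCTT, was found in 10 (14.1%), beside 3.57%. The ETS core that GABP binds, CCGGAAGT or ACTTCCGG, was found in 3 (4.23%), beside 5.69%, and the cAMP response element TGACGTCA in 3 (4.23%), beside 2.54%. Cycs holds the respiratory factor 1 core with its first base at -60, in capitals above, and a TGACGTCA at -169, outside the bases shown. None of the 4 is in the windows of Cyct, Cox6b2, Cox6b1, Cox7b2 or Cox7b, which says only that these letters are not there. The respiratory factor 1 core was present in 2 of 18 members called higher, 5 of 23 called lower and 5 of 30 not called. The YY1 core was present in 4, 3 and 3 of them. These are matches of letters, not binding sites.

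The heart and muscle forms had low signals. Cox7a1 had signals of 20 to 61.4 (median 39.4) at days 0 to 10, of 71.9 and 71.6 at day 14 and of 11.8 to 29.1 (median 26) at days 30 to 56. Its change of -0.41 ± 0.16 (adjusted p = 0.0259 in limma) was lost when sample 1 of day 10, 30, 35 or 56 was left out (adjusted p 0.0539 to 0.119) and with median scaling (-0.27, adjusted p = 0.181) or quantile normalization (-0.34, adjusted p = 0.0935). Cox8b had 58.5 to 118 at days 0 to 10 and 76.3 to 118 at days 30 to 56, and a change of 0 ± 0.11 (adjusted p = 0.98). The 9 measured markers of skeletal and cardiac muscle, summed, lay at 674 to 982 at days 0 to 10 and 434 to 610 at days 30 to 56. Of them 0 were higher, beside 24.8% of all genes. Another 4 were lower (44.4%), a share near the 42.3% of all genes. Their part in Cox7a1 was not tested.

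Among the other complex IV subunits, Cox7a2, the ubiquitous form of subunit VIIa, rose. Its signals were 638 to 1238 (median 763) at days 0 to 10, 1533 and 1513 at day 18, and 3172 and 3134 at day 56, and all late samples lay above all early ones. The change was 1.49 ± 0.13 (adjusted p = 1.77e-08 in limma), although a second probe set of Cox7a2 on type C gave -0.26 ± 0.19 and was not called. Cox7a2l, which encodes a factor joining complexes III and IV, fell by 0.61 with an SE of 0.16 (adjusted p = 0.00243 in limma), and not by the same test under median scaling (-0.39, adjusted p = 0.0928). Cox4i1, Cox5a, Cox5b, Cox6a1 and Cox6c, further nuclear subunits, had changes between -0.18 and 0.16 and none was called. Of the ubiquitous forms described above, Cox6b1 was not called either, while Cox7a2 and Cox7b were. In all, 3 of 14 measured complex IV genes were higher and 3 lower (21.4% each, beside 24.8% and 42.3% of all genes) and 8 were not called. With median scaling 5 were higher and 1 lower, and with quantile normalization 4 and 4.

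In complex I, 8 of 32 subunits were higher at days 30 to 56 (25%, beside 24.8% of all genes), 7 were lower (21.9%, beside 42.3%) and 17 were not called. With median scaling 11 were higher and 3 lower, and with quantile normalization 7 and 8. The median change was -0.06, and it was 0.16 with median scaling and -0.13 with quantile normalization. Ndufv2, the iron-sulphur subunit of the NADH-binding module, rose most. It had signals of 426 to 887 (median 676) at days 0 to 10 and 1540 to 1974 (median 1707) at days 30 to 56, which do not overlap, and a change of 1.35 ± 0.12 (adjusted p = 2.2e-08 in limma). Ndufc1, an accessory subunit, went from 390 to 816 (median 528) to 1178 to 1407 (median 1256), a change of 1.19 ± 0.14. Ndufa5 changed by 0.84 ± 0.11 and Ndufb10 by 0.8 ± 0.19, both accessory subunits. The late samples of Ndufc1 and Ndufa5 lay above all early samples, and those of Ndufb10 did not, since sample 1 of day 0 had 676.

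Ndufb11, an accessory subunit encoded on chromosome X, showed the largest fall in complex I. Its signals were 334 to 952 (median 383) at days 0 to 10, 231 and 190 at day 18, and 96 to 143 (median 115) at days 30 to 56, a change of -1.74 ± 0.16 (adjusted p = 2.77e-08 in limma). Ndufs8 and Ndufs7, core subunits that carry iron-sulphur clusters next to the ubiquinone site, fell as well. Ndufs8 went from 1771 to 4886 (median 2911) to 970 to 1262 (median 1109), a change of -1.39 ± 0.2. Ndufs7 went from 784 to 1825 (median 972) to 418 to 594 (median 539), a change of -0.91 ± 0.19. In each of the 3 genes every late sample lay below every early sample. Ndufa12, an accessory subunit, had a change of -0.61 ± 0.18 (adjusted p = 0.00678 in limma) that was lost with median scaling (-0.31, adjusted p = 0.182) and quantile normalization (-0.39, adjusted p = 0.063).

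The core subunits of complex I thus moved apart from each other. Looked up after the values were seen, Ndufv2 rose, Ndufs7 and Ndufs8 fell, and Ndufv1 (0 ± 0.14), Ndufs3 (0.28 ± 0.17) and Ndufs1 (-0.3 ± 0.24) were not called. Ndufs1 is uncertain, because the probe set on type A, which is not the brightest, gave 0.46 ± 0.08 and the brightest one, on type C, did not. Its type C signals also differed between the samples of most early days, with 217 and 512 at day 3, 255 and 575 at day 6, and 331 and 652 at day 8.

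The assembly factors of complex I held the third-largest rise of the group. Ndufaf3, which acts early in the assembly of the membrane-peripheral junction, had signals of 52.1 to 256 (median 118) at days 0 to 10 and of 388 and 488 at day 14. At day 18 they were 2543 and 1511, at day 20 they were 2424 and 6534, and at days 30 to 56 they ran from 1812 to 2472 (median 2184). The late samples lay far above the early ones, with a change of 3.96 ± 0.25 (adjusted p = 1.47e-10 in limma), and the probe set on type C gave 4.36 ± 0.18. Ndufaf2 rose from 6.4 to 51.8 (median 17.6) to 54 to 143 (median 109), a change of 1.67 ± 0.2 (adjusted p = 5.55e-07 in limma). Since Ndufaf2 passed the filter on low signal only through samples after day 10, this p-value is no independent support. The name of its only measured probe set marks shared or less specific probes. Ndufaf8, from 272 to 805 (median 616) to 829 to 1026 (median 893), had a change of 0.66 ± 0.18 that was lost with quantile normalization (0.2, adjusted p = 0.362).

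Ndufaf4, known as a partner of Ndufaf3 in assembly, went the other way, from 63.7 to 125 (median 81.8) to 33.1 to 54 (median 40.6). Its change was -0.77 ± 0.16 (adjusted p = 0.000424 in limma), and its late samples lay below all early samples. Ndufaf6 had a change of -0.58 ± 0.23 (adjusted p = 0.0382 in limma) that was lost in 11 of 22 fits with 1 sample left out (either sample of days 6, 30 or 56, sample 2 of days 0, 3, 10 or 35, and sample 1 of day 8, adjusted p 0.0517 to 0.124) and under both other scalings (-0.3 and -0.34). Ndufaf1 and Ndufaf5 were not called. Of the 7 factors, 3 were higher (42.9%, beside 24.8% of all genes), 2 lower (28.6%, beside 42.3%) and 2 not called.

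Complex II is also the succinate dehydrogenase of the tricarboxylic acid cycle. Of its 4 subunits none was called higher, beside 24.8% of all genes, and 3 were lower (75%), beside 42.3%. Sdha, the flavoprotein subunit that oxidizes succinate, fell from 52.4 to 76.6 (median 63.8) at days 0 to 10 to 25.6 to 35.9 (median 33.2) at days 30 to 56. The groups do not overlap, the change was -0.76 ± 0.13 (adjusted p = 4.11e-05 in limma), and all late signals were under 50. The membrane anchors Sdhc and Sdhd had changes of -0.35 ± 0.15 (adjusted p = 0.0491 in limma) and -0.46 ± 0.18 (adjusted p = 0.0368 in limma). Sdhb, the iron-sulphur subunit, had -0.18 ± 0.2 and was not called. The calls of both anchors were fragile: that of Sdhc was lost in 16 of 22 fits with 1 sample left out (all but those without either sample of day 20 or sample 2 of days 0, 3, 6 or 8, with adjusted p 0.0506 to 0.122) and that of Sdhd in 9 (sample 1 of days 0, 3, 6, 8, 10 or 56, either sample of day 35, sample 2 of day 30, with adjusted p 0.0663 to 0.129), and both with median scaling (-0.12 and -0.23). That of Sdhc was also lost with a pseudocount of 64 (-0.32, adjusted p = 0.0512).

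The complex II assembly factors were mixed, with 1 of 4 higher (25%, beside 24.8% of all genes). Another 2 were lower (50%, beside 42.3%) and 1 was not called. Sdhaf4 rose by 0.55 ± 0.14, from 98.3 to 172 (median 140) to 170 to 285 (median 207), and the groups overlap at 1 late sample, sample 1 of day 35. Sdhaf2, which helps attach the flavin to Sdha, fell from 340 to 553 (median 465) to 181 to 235 (median 216), a change of -1.03 ± 0.13 (adjusted p = 3.26e-06 in limma). That value comes from a probe set whose name marks probes shared with other transcripts, and without such probe sets the change of Sdhaf2 was -0.23 and not called (adjusted p = 0.078). Sdhaf3 had -0.52 ± 0.19, a call lost without sample 1 of day 30, sample 2 of day 35 or sample 2 of day 56 (adjusted p 0.0543 to 0.0689), and with median scaling or quantile normalization (-0.33 in each).

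In complex III, 3 of 7 subunits rose (42.9%, beside 24.8% of all genes), 2 fell (28.6%, beside 42.3%) and 2 were not called. With median scaling 3 rose and 1 fell, and with quantile normalization 2 and 2. Uqcrq, the ubiquinone-binding small subunit, went from 513 to 1438 (median 855) to 2140 to 2987 (median 2450), a change of 1.49 ± 0.18 (adjusted p = 6.73e-07 in limma). Uqcrc1, a core protein on the matrix side, went from 622 to 1122 (median 667) to 1306 to 1846 (median 1432), a change of 1.04 ± 0.15. In both genes the late samples lay above all early ones. Uqcr10, a small subunit, had 0.44 ± 0.15 (adjusted p = 0.0161 in limma) and lost its call with quantile normalization (0.27, adjusted p = 0.0828) and without sample 2 of day 35 (0.39, adjusted p = 0.0531).

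Uqcr11, another small subunit, fell from 210 to 508 (median 365) to 183 to 219 (median 196), a change of -0.81 ± 0.14 (adjusted p = 6.81e-05 in limma), with an overlap at sample 2 of day 0. Uqcrh, the hinge protein next to cytochrome c1, had -0.47 ± 0.13 and lost its call with median scaling (-0.24, adjusted p = 0.21). Uqcrc2, the partner of Uqcrc1 in the core, had 0.19 ± 0.15 and was not called.

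In ATP synthase 6 of 14 subunits fell (42.9%, beside 42.3% of all genes), 1 was higher (7.14%, beside 24.8%) and 7 were not called. The share that fell is that of all genes. The median change was -0.36, against -0.24 over all genes, and was -0.14 with median scaling and -0.55 with quantile normalization. Atp5j2, the f subunit of the membrane part, had signals of 42.8 to 173 (median 97) at days 0 to 10 and 4.4 to 48.8 (median 35.3) at days 30 to 56, which overlap. Its change of -1.23 ± 0.25 (adjusted p = 0.000278 in limma) ran from -1.72 to -0.72 with pseudocounts of 1 and 64, since the late signals are low. Atp5g2, a gene for the c subunit of the rotor ring, fell from 179 to 387 (median 225) to 88.3 to 122 (median 96.8) with no overlap, a change of -1.15 ± 0.13 (adjusted p = 3.36e-07 in limma). Atp5g1, a second gene for the same protein, had 36.5 to 67 (median 50.3) and 51.6 to 71 (median 58.6), and its change of 0.21 ± 0.13 was not called. All measured probe sets of Atp5j2 and Atp5g2 have names that mark shared or less specific probes.

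Atp5md, a small subunit of the membrane part, had signals of 799 to 1950 (median 1445) at days 0 to 10 and a change of -1.15 ± 0.21 (adjusted p = 8.13e-05 in limma). Its signals were 911 and 344 at day 18, 201 and 340 at day 20, 462 to 534 at days 30 and 35, and 935 and 898 at day 56. The mean of day 20 was the lowest, and the samples of day 18 lay on both sides of those of days 30 and 35. The only measured probe set of Atp5md has a name that marks shared or less specific probes. Atp5mpl, another small subunit, was also lowest at day 20 by its mean, with 702 to 983 (median 883) at days 0 to 10, then 347 at sample 2 of day 18 and 327 and 309 at day 20, and 836 and 1042 at day 56. Atp5c1, the gamma shaft of the catalytic head, fell by 0.86 with an SE of 0.17, and Atp5a1, its alpha subunit, by 0.61 with an SE of 0.12. The late samples of Atp5a1 (1217 to 1427) lay below all early ones (1659 to 2468), and those of Atp5c1 (584 to 895) overlapped with sample 2 of day 0 and sample 1 of day 8. Atp5j, the coupling factor F6 of the stalk, was the member that rose, from 458 to 787 (median 589) to 803 to 833 (median 820), a change of 0.45 ± 0.12 (adjusted p = 0.00331 in limma), not called with quantile normalization (0.24, adjusted p = 0.0841).

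All 84 members have a chromosome in the gene table, and 3 lie on chromosome X, a chromosome known to be silenced in pachytene spermatocytes. Cox7b and Ndufb11, described above, had changes of -2.08 and -1.74, the 2 largest falls of the group. Ndufa1 had signals of 14.9 to 64.8 over these samples and a change of -0.09 ± 0.15 that was not called. Of all 413 measured genes on chromosome X, 296 (71.7%) were lower at days 30 to 56, with a median change of -0.94, beside -0.23 for autosomal genes. The part of the chromosome in the falls of Cox7b and Ndufb11 was not tested.

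The course between the early and the late days was followed in 5 steps. From days 0 to 6 to days 8 and 10, Cycs rose by 0.78 ± 0.2 (adjusted p = 0.0233 in limma), beside 3.76% of all genes higher, and Uqcrb, a small complex III subunit, fell by 0.52 with an SE of 0.14 (adjusted p = 0.0303 in limma), beside 2.71% lower. Each was the only call in its direction. Both depended on single samples: Cycs was not called without sample 1 of day 3 or 6 or either sample of day 8 or 10 (adjusted p 0.0603 to 0.103) or without days 0 and 20 (0.57, adjusted p = 0.154), and Uqcrb not without sample 1 of day 3, either sample of day 6 or 8 or sample 2 of day 10 (adjusted p 0.0555 to 0.181). Without sample 1 or 2 of day 0 the count of higher members was 3 or 2, and without sample 2 of day 0 the count of lower members was 4.

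From days 8 and 10 to day 14, as the first spermatocytes reach pachytene, 4 members rose (4.76%), beside 1.54% of all genes. They were Cox8c by 4.07 ± 0.49, Cox6b2 by 2.33 ± 0.21, Cyct by 1.76 ± 0.32 and Ndufaf3 by 1.74 ± 0.42 (adjusted p from 5.44e-06 to 0.0399 in limma). No member fell, beside 0.379% of all genes, and 1 had a fall with an unadjusted p under 0.05 in limma. With 2 samples at day 14, the calls of Cyct and Ndufaf3 were lost and the count was 2 when either was left out. Cyct then had 1.64 (adjusted p = 0.121) or 1.89 (adjusted p = 0.0593). Ndufaf3 was not called without either sample of days 8, 10, 14, 30, 35 or 56 (adjusted p 0.0569 to 0.423), with median scaling (adjusted p = 0.0605) or with a pseudocount of 1 (adjusted p = 0.0506).

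From day 14 to days 18 and 20, 9 members rose (10.7%), beside 8.94% of all genes, and 4 fell (4.76%), beside 9.99%. The same 4 genes led the rises, with Ndufaf3 at 2.64 ± 0.42, Cox8c at 2 ± 0.49, Cox6b2 at 1.95 ± 0.21 and Cyct at 1.31 ± 0.32. Uqcrq (1.12), Uqcrc1 (1.01), Ndufc1 (0.8), Ndufb5 (0.79) and Ndufv2 (0.72) of complexes III and I were the other 5. Atp5md (-1.34), Atp5mpl (-1.09), Cycs (-0.95) and Cox7b (-0.94) fell. In all, 59 of 84 members had a positive change, with a median of 0.23 beside -0.1 over all genes, and the medians were 0.38 and 0.18 with median scaling and quantile normalization.

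This step rests on few samples. Without sample 1 of day 14 no member was called lower (Atp5md -1.14, adjusted p = 0.14; Atp5mpl -0.84, adjusted p = 0.102; Cox7b -0.72, adjusted p = 0.198; Cycs adjusted p = 0.157), Cox8c and Cyct lost their calls (adjusted p 0.125 and 0.0505 in limma), and 4 were higher. Without sample 2 of day 14, 3 were higher and Cyct (adjusted p = 0.11) and Cycs (adjusted p = 0.0904) were not called. The count of higher members was 17 without either sample of day 0 and 19 without sample 2 of day 20. Without days 0 and 20 altogether, 10 were higher, 0 lower, and Cox8c had 1.85 (adjusted p = 0.0516).

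From days 18 and 20 to days 30 and 35, the direction turned. Of 84 members, 69 had a negative change, with a median of -0.34 beside -0.16 over all genes, and 18 fell (21.4%), beside 17.7% of all genes. With median scaling the members' median was -0.29 and 11 fell, and with quantile normalization it was -0.39 and 20 fell. The largest falls were in Cycs (-1.11 ± 0.22), Ndufa12 (-0.97 ± 0.25), Ndufb6 (-0.95 ± 0.19) and Ndufs8 (-0.95 ± 0.27), the last of which lost its call without sample 2 of day 20 (-0.66, adjusted p = 0.0692) and with median scaling (adjusted p = 0.0575). Of the 32 complex I subunits, 10 fell in this step (31.2%, beside 17.7% of all genes), but 4 did with median scaling and 9 with quantile normalization. Ndufb6, an accessory subunit, had signals of 963, 733, 1115 and 750 at days 18 and 20 and of 438 to 455 at days 30 and 35, and returned to 695 and 624 at day 56.

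In the same step 2 members rose (2.38%), beside 10.5% of all genes. Atp5mpl rose by 0.69 ± 0.2, which was lost without sample 2 of day 18 (0.42, adjusted p = 0.0701) or sample 2 of day 35 (adjusted p = 0.0653), and was 0.36 without days 0 and 20 (adjusted p = 0.26). Atp5j rose by 0.47 ± 0.17 (adjusted p = 0.0407 in limma) and was lost without either sample of days 6, 8, 18, 30, 35 or 56 or sample 1 of day 20 (adjusted p 0.0505 to 0.177), with median scaling (0.51, adjusted p = 0.0531) and with quantile normalization (0.35, adjusted p = 0.137). The count of higher members was 0 without sample 2 of day 18 or of day 35, 4 without sample 2 of day 20, and 1 without either sample of days 6, 8, 30 or 56, or sample 1 of day 18 or 35.

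From days 30 and 35 to day 56 no member was called higher, beside 0.0297% of all genes, or lower, beside 0.052%. At an unadjusted p under 0.05 in limma 8 were higher and 0 lower, and 65 of 84 had a positive change, with a median of 0.19 beside 0.01 over all genes. The members' median was 0.18 with median scaling and 0.15 with quantile normalization.

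**Figure D3:**
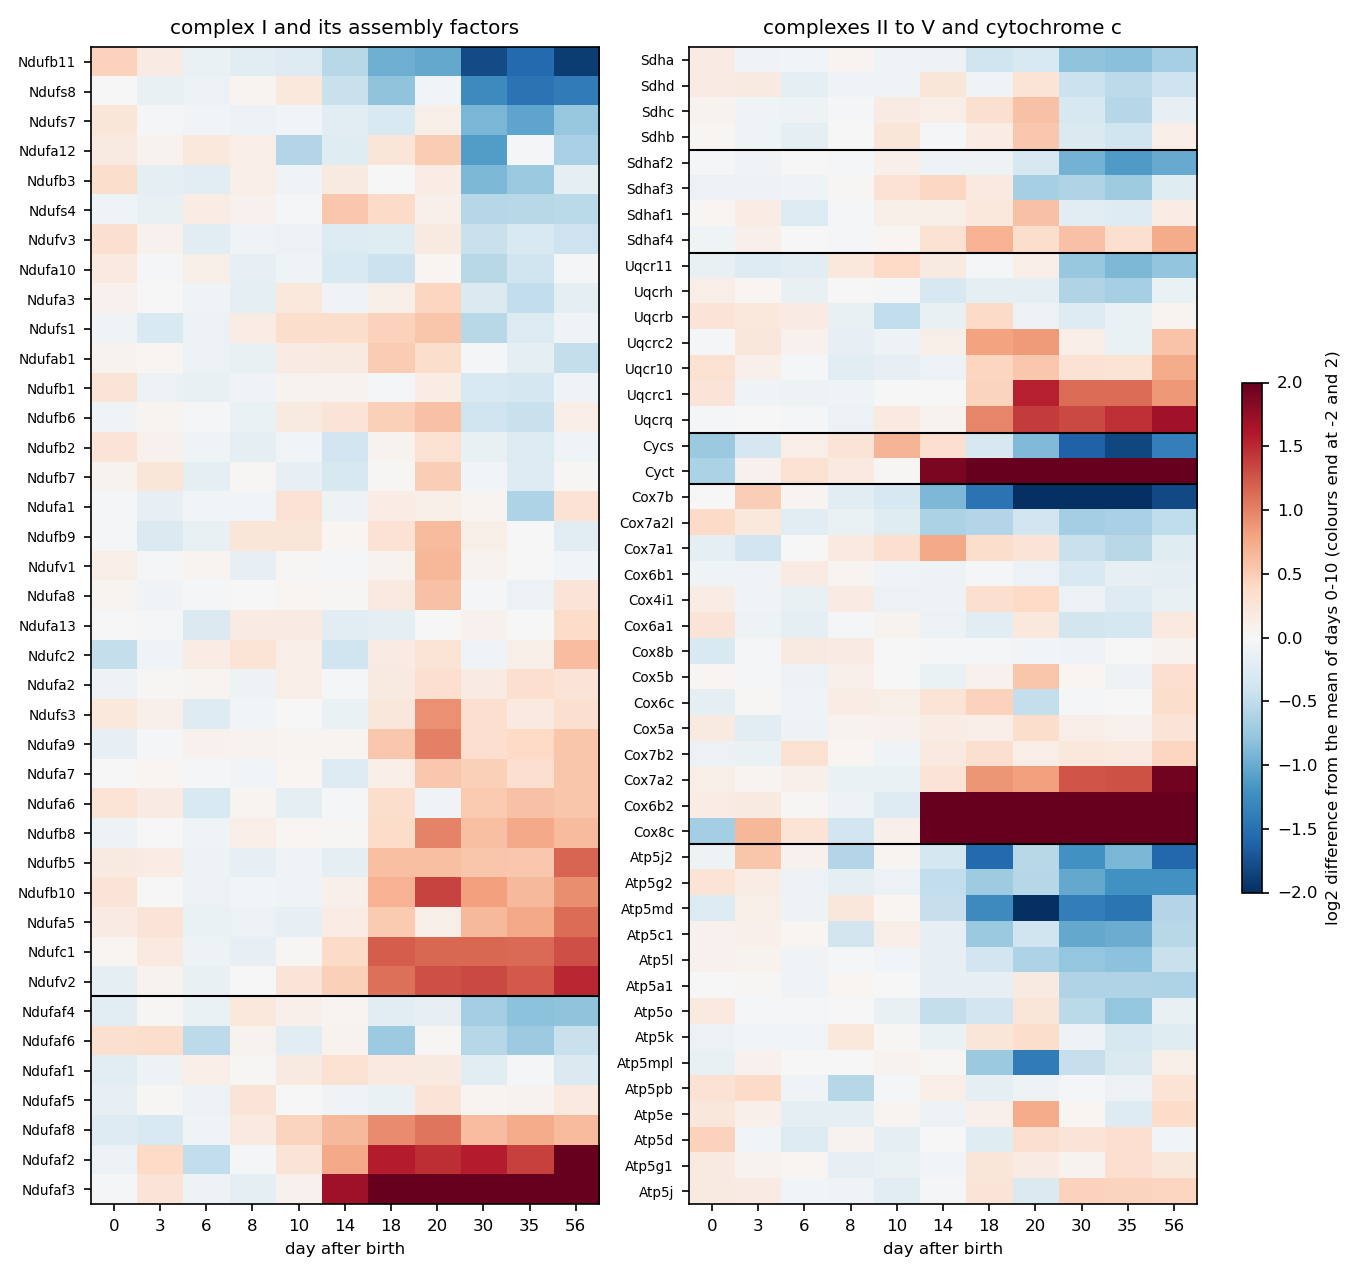
Log2 difference of each day's mean from the mean of days 0-10, on the log2(signal + 16) scale, for the 84 genes (rows, by complex, black lines between groups) over the 11 days (columns); red is higher and blue lower, and colours end at -2 and 2. Cyct, Cox6b2, Cox8c and Ndufaf3 turn red from day 14, Cycs, Cox7b and Ndufb11 turn blue, and a band of pale red at day 20 crosses most complex I rows.

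Each later day was also set against the mean of days 0 to 10. At day 14, 4 members were higher and 1, Cox7b, was lower, beside 4.72% and 3.38% of all genes. At day 18, 15 were higher and 8 lower, beside 14.6% and 17.1%, and at day 20, 24 were higher and 7 lower, beside 16.9% and 23.7%. At day 30, 17 were higher and 21 lower, beside 20.5% and 32.8%, at day 35 they were 16 and 21, beside 20.6% and 33.5%, and at day 56 they were 19 and 14, beside 20.6% and 34.1%. The share of members called higher at day 20 was 28.6%, the largest of these days. Of the 84 members, 30 had their highest day mean at day 20, 15 at day 0 and 15 at day 56. Highest days were not counted over all genes, so that these counts have no background beside them. Days 0 and 20 were also the least even days, on which 1 high sample can set the highest mean.

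Day 20 is also a day on which samples 1 and 2 differ. Sample 1 was the higher in 51 of the 84 genes. Atp5a1 had 3084 in sample 1 and 1692 in sample 2 there, Uqcrc1 had 2970 and 1505, Ndufb10 had 1415 and 599 and Ndufa9, an accessory complex I subunit, had 1633 and 615. Cyct, at 189 and 535, and Cox6c, at 718 and 2037, differed the other way. All of these genes are on type A. On types B and C sample 2 was the higher in most members. Examples are Ndufs7 (698 and 1720), Ndufs8 (1882 and 4260) and Sdhb (492 and 1530). On these types Cox7b2, Sdhaf2, Sdhaf3 and Sdhaf4 had the higher signal in sample 1. The part of the array type was not tested. These genes were chosen after their values were seen. In Atp5a1, Uqcrc1, Ndufb10 and Ndufa9, sample 1 of day 20 and not sample 2 stood above all samples of the other days.

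Counted from the first day on which a member was called against days 0 to 10 and stayed called at every later day, 4 members rose from day 14 (Cyct, Cox6b2, Cox8c and Ndufaf3), 6 from day 18 (Cox7a2, Ndufaf2, Ndufb5, Ndufc1, Ndufv2 and Uqcrq), 2 from day 20 (Ndufb8 and Uqcrc1), 2 from day 30 (Ndufa5 and Ndufa6) and 5 at day 56. Cox7b fell from day 14, Atp5g2 and Ndufb11 from day 18, Atp5l and Cycs from day 20, and 8 from day 30, among them Sdha, Ndufs7 and Ndufs8. Cyct, Cox6b2, Cox8c and Ndufaf3 thus came first among the rises, while the testis form Cox7b2 had no such first day. Of the 14 falls counted this way, 8 began at day 30. Over all genes, those called lower also went from 3195 at day 20 to 4417 at day 30. First days were not counted over all genes, so that this order has no background beside it.

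**Figure D4:**
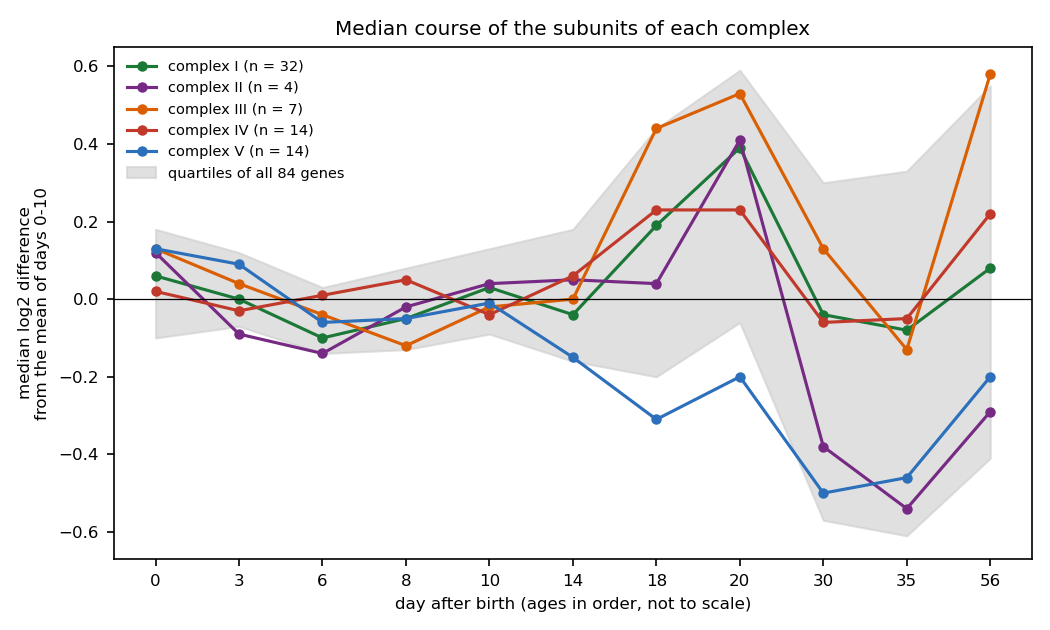
Median log2 difference from the mean of days 0-10 (vertical axis) against the day after birth for the measured genes of complexes I (32), II (4), III (7), IV (14, with Cox7a2l) and V (14), with the quartiles of all 84 genes in grey. The scaling is the deposited one. Complex I rises to 0.39 and complex III to 0.53 at day 20, a day whose samples differed. Complex II falls to -0.54 at day 35, and complex V is below 0 from day 14 on.

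With the deposited scaling, the only one used here, the medians of the complexes differed in their course over days. Complex I stood at 0.19 at day 18, 0.39 at day 20, -0.08 at day 35 and 0.08 at day 56. Complex III stood at 0.44, 0.53, -0.13 and 0.58 on those days, complex II at 0.04, 0.41, -0.54 and -0.29, and complex V at -0.31, -0.2, -0.46 and -0.2. Complex IV, whose median hides the testis forms, stood at 0.23, 0.23, -0.05 and 0.22. These are medians over genes that are no replicates of each other, and no test was made between complexes. The medians of day 20 rest on samples that differed. All measured complex III genes are on type A, where sample 1 of day 20 was the higher in each but Uqcrb (456 and 694). Uqcrc1 had 2970 and 1505 there and Uqcrq 2886 and 1899.

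Of the 84 members, 28 had at least 2 measured probe sets, and 16 of these were called between days 30 to 56 and days 0 to 10. In 4 of the 16, Cox7a2, Ndufa6, Ndufb8 and Ndufc1, another probe set on type C had the opposite sign. Those gave -0.26 for Cox7a2, -0.08 for Ndufa6, -0.05 for Ndufb8 and -0.28 for Ndufc1, against 1.49, 0.55, 0.67 and 1.19, and none was itself called. The second probe set of Cox6b2 on type A gave 3.25 ± 0.22 and the one on type C 0.17 ± 0.18, not called.

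Other genes of mitochondrial energy metabolism were counted from lists chosen with earlier results known, with the 24.8% higher and 42.3% lower of all genes as background. Of 13 measured tricarboxylic acid cycle genes, 3 were higher and 6 lower at days 30 to 56. Sucla2 and Suclg1, subunits of succinate-CoA ligase, rose by 1.54 ± 0.14 and 1.46 ± 0.12, while Idh2, mitochondrial isocitrate dehydrogenase, and Mdh2, malate dehydrogenase, had changes of -2.53 ± 0.16 and -1.74 ± 0.14. Of 10 pyruvate dehydrogenase genes, 4 were higher and 4 lower. Pdha2, the testis form of the E1 alpha subunit, rose by 4.71 ± 0.13 and Pdha1, the X-linked ubiquitous form, fell by 2.22 with an SE of 0.2. Pdk2, a kinase of the complex, rose by 2.35 ± 0.24, and Pdk1, another, fell by 1.25 with an SE of 0.11.

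Of 26 assembly factors and electron carriers outside the naming rule, with Sdhaf1 and Sdhaf2 counted among them, 4 were higher (15.4%) and 13 lower (50%). Uqcc2 and Uqcc1, assembly factors of complex III, rose by 1.68 ± 0.19 and 1.2 ± 0.21. Timmdc1, of complex I assembly, and Sco1, which delivers copper to complex IV, had changes of -1.98 ± 0.47 and -1.97 ± 0.18. Cyc1, cytochrome c1 of complex III, fell by 1.35 with an SE of 0.12. Of the inner membrane exchangers, 0 of 9 were higher and 4 lower in limma, with Slc25a4 and Slc25a5, which swap ADP for ATP, at -2.17 ± 0.2 and -1.67 ± 0.16.

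Of 13 regulators of mitochondrial genes, 1 was higher and 9 were lower (69.2%). Tfam, which packages and transcribes mitochondrial DNA, fell by 2.34 with an SE of 0.19, and Gabpa, the DNA-binding part of GABP, by 1.29 with an SE of 0.22. Esrra, a nuclear receptor of mitochondrial genes, rose by 0.4 ± 0.11. Of 23 import genes (Tomm and Timm), 6 were higher and 10 lower, led by Tomm7 (1.29 ± 0.14) and Timm8b (1.24 ± 0.13) and by Timmdc1, listed here by its letters, and Timm8a1 (-1.52 ± 0.13). Of 68 mitochondrial ribosomal protein genes, 19 were higher and 26 lower, led by Mrpl39 (1.88 ± 0.13) and Mrpl47 (1.8 ± 0.13), and by Mrpl23 (-1.51 ± 0.18) and Mrpl50 (-1.44 ± 0.15).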

How the data were processed

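Total RNA of whole testes was measured on 66 arrays of 3 types, 22 per type. Values are the deposited linear signal intensities of each probe set, brought by the authors to a mean of 125 on every array, per the labels; the software is not given in the sources used here. Probe sets that named 1 gene in the deposited platform annotation (29131 of 36899; 724 named several, 198 were controls) and reached 50 on at least 2 of 22 arrays were kept (22191), and the brightest stood for its gene. Days were fitted as 11 means of log2(signal + 16) per type in limma 3.58.1 (R 4.3.3; lmFit, eBayes with a variance trend; 11 residual degrees of freedom), two-sided, with Benjamini-Hochberg adjustment over all 13472 genes, and called at 0.05. The code was tested on simulated data. The main fit did not pair samples by number. Differences between samples 1 and 2 correlated between days from -0.21 to 0.56 on type A. On B the range was -0.02 to 0.41, and on C -0.08 to 0.27. Of 55 pairs of days, 27 correlated above 0.1 on A, 27 on B and 19 on C. A fit with the number as a block is given below. For Cox7b2 minus Cox7b, equal numbers on 2 types were taken as 1 RNA.

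The genes, lists and tests were chosen with earlier results of these data known. Named were all pair members, up to 4 rises and 4 falls per complex among called genes, members called in a step (the 4 largest each way where more than 5), members on chromosome X and those with opposing probe sets, and the 2 largest called changes each way per list. Other genes named to describe a complex were chosen after their values were seen. Chromosomes, start sites and promoters come from RefSeq (GRCm38.p6), which gave a promoter for 71 of 84 members. Alternatives were other pseudocounts, filters, scalings, probe sets, a replicate block and samples left out.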

Additional observations from a re-analysis of the deposited data

How the results depend on the processing

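No result changed sign as a called value. Counts that moved by over 1.5 times were the members lower at days 30 to 56 (14 with median scaling, against 26), lower from days 18-20 to 30-35 (11 with median scaling, against 18), lower from days 0-6 to 8-10 (0 without probe sets whose names mark shared or less specific probes, against 1) and, without days 0 and 20, chosen after seeing the data, higher from days 0-6 to 8-10 (2, against 1) and lower from day 14 to 18-20 (0, against 4). With 1 sample left out, counts ranged from 0 to 3 higher and 0 to 4 lower from days 0-6 to 8-10, 2 to 4 higher from days 8-10 to 14, 3 to 19 higher and 0 to 5 lower from day 14 to 18-20, and 0 to 4 higher and 12 to 25 lower from days 18-20 to 30-35. For days 30 to 56 they ranged from 19 to 24 higher and 22 to 29 lower. The 4 pair differences kept their side in every setting in which they were formed. With 1 sample left out, they ranged from 4.51 to 4.68 for Cyct and 4.52 to 4.76 for Cox6b2. The ranges were 2.24 to 2.42 for Cox7b2 and -2 to -1.83 for Cox7a1. Without probe sets whose names mark shared or less specific probes, the pairs of Cox6b2 and Cox7b2 could not be formed. All measured probe sets of Cox6b2, Cox6b1 and Cox7b2 are of that kind. The same holds for Atp5j2, Atp5g2, Atp5md, Ndufa5, Ndufb5 and Ndufaf2, among others. Without this kind 67 members were measured, with 16 higher and 22 lower at days 30 to 56. Of all 12252 genes then measured, 3008 were higher and 5277 lower. Over the 65 single-gene results, other settings gave 629 values, of which 594 were counted as unchanged, 32 lost their call and 3 gained one. Samples left out gave 1430, with 1335, 94 and 1 in these classes. Unchanged values include those of results that were not called in the main fit and stayed so, whatever their sign. With the sample number as a replicate block, 22 members were higher and 27 lower at days 30 to 56. No count of members moved by over 1.5 times. Where a cause is not named, the cause was not tested. Signals under about 50 have no detection call here and limit the early level of Cyct and Ndufaf2 and the late level of Sdha and Atp5j2.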

Other observations

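Some subunits are measured on these arrays only by probe sets that name several genes, and were left out above. The probe sets of Cox7c or Gm12338 on type A had median signals of 3897 at days 0 to 10 and 3761 at days 30 to 56 (log2 change 0.05), and 2293 and 2058 (0.1). That of Ndufa11 or Ndufa11b went from 640 to 297 (-0.93), and that of Ndufs5 or Ndufs5-ps from 357 to 464 (0.37). For Ndufs6 or Ndufs6b, 2 probe sets on type A went from 485 to 782 (0.62) and from 533 to 819 (0.65), while 1 on type C went from 140 to 48.1 (-1.15). For Ndufb4 and its copies the changes were -0.11 on type A and -0.13 on type B. A second probe set of Atp5c1, shared with Atp5c1-ps, went from 2364 to 1200 (-0.73), beside -0.86 for the one used. These changes were not tested.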
